A study of Mus musculus with 2 samples.

Results

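The genes described here are 7 defence genes of the gut epithelium that microbes and the cytokines IL-22 or IL-17 are known to induce: *Saa1*, *Saa2*, *Duox2*, *Duoxa2*, *Nos2*, *Fut2* and *Pigr*. They were chosen by name, as the rows of the count matrices that carry these symbols, and all 7 were found among the 27998 genes counted. The data are 2 droplet-based sc-RNASeq libraries of ileal epithelium, 1 from WT mice and 1 from *Tipe0*-/- mice, which carry a whole-body knockout of *Tnfaip8* (TIPE0). Mice of both groups were 8 weeks old, on a C57BL/6 background and undamaged, and cells of several mice were combined in each library. The methods do not state that WT and *Tipe0*-/- mice were littermates or shared cages, so genotype, pool of mice and housing cannot be told apart. The methods name DNase I and Dispase for the digestion and the labels name collagenase and dispase, which leaves the enzymes uncertain for both libraries alike. The labels also call the material enteroids, whereas the methods name isolated enterocytes and the paper describes profiling epithelium of undamaged mice. Both libraries held cells with lymphocyte markers (90 WT and 17 *Tipe0*-/-, described below), which a culture of epithelium would lack. The cells are therefore read here as isolated from tissue.

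Resident microbes reach the ileal epithelium through their adhesion, their metabolites and the lymphocytes they stimulate, and lymphocyte-derived IL-22 and IL-17 act on receptors that epithelial cells carry. The epithelium answers with a shared set of products. SAA1 and SAA2 are secreted acute-phase proteins that bind retinol and lipids, DUOX2 is a membrane oxidase that releases hydrogen peroxide at the cell surface, and DUOXA2 is the maturation factor without which DUOX2 does not leave the endoplasmic reticulum. NOS2 makes nitric oxide from arginine, FUT2 adds fucose to glycans of the cell surface and of mucus, and PIGR carries dimeric IgA across the cell into the lumen.

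There were 3402 WT cells with 38127808 unique molecular identifiers (UMIs) in all and 2006 *Tipe0*-/- cells with 23897126, and the median cell held 7760 and 7307.5 UMIs. Mitochondrial genes took 6.59% and 8.56% of UMIs, and 9 cell barcodes occurred in both libraries. *Epcam*, which marks epithelium, was found in 97.8% of WT and 99.2% of *Tipe0*-/- cells. *Fabp6*, the ileal bile acid binding protein, stood at 7277 and 7149 UMIs per 1000000 (CPM), while the colonic gene *Car1* had 8 and 0 UMIs. *Fabp1*, used as a marker of more proximal gut, did differ, with 1266 WT and 110 *Tipe0*-/- UMIs. Whether both libraries sample the same stretch of gut was not tested. The deleted gene, *Tnfaip8*, had 372 WT and 57 *Tipe0*-/- UMIs (log2 ratio −2.02, 95% interval −2.46 to −1.63). Some of its UMIs were thus still counted in the *Tipe0*-/- library, and their source was not tested. With 1 library per genotype there is no replicate and no test, and every interval given covers counting error only. Levels are sums of UMIs over cells, given as CPM with exact 95% Poisson intervals, and ratios are log2 of *Tipe0*-/- over WT. As the libraries count tags at the 3′ end, CPM is compared between cells and libraries but not between genes.

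Several of these genes are neighbours. *Duox2* (ENSMUSG00000068452) lies on the minus strand at chr2:122279247-122298449 of GRCm38 and *Duoxa2* (ENSMUSG00000027225) on the plus strand at chr2:122298900-122302885, so that their starts face away from each other across 450 bases. *Saa1* (ENSMUSG00000074115, chr7:46740497-46742980, minus strand) and *Saa2* (ENSMUSG00000057465, chr7:46751790-46754313, plus strand) are likewise divergent, with 8809 bases between their starts. *Fut2* (ENSMUSG00000055978, chr7:45648591-45666394), *Nos2* (ENSMUSG00000020826, chr11:78920787-78960254) and *Pigr* (ENSMUSG00000026417, chr1:130826684-130852249) stand apart from the others. *Duoxa2* overlaps *Duoxa1* on the opposite strand, and *Duoxa1* had only 17 and 3 UMIs.

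The stretches just before the *Saa1* and *Saa2* starts are shown because these genes are copies of each other and both were lower in *Tipe0*-/- cells. They are from RefSeq (GRCm38.p6), read 5′ to 3′ on each gene's own strand, at chr7:46743024-46743190 for *Saa1* and chr7:46751622-46751789 for *Saa2*, and end 44 bases before the RefSeq start. Capitals mark the bases that differ between them.
Saa1: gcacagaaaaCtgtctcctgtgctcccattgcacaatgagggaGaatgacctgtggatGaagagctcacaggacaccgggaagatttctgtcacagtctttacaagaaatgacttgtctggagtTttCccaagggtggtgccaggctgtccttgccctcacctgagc
Saa2: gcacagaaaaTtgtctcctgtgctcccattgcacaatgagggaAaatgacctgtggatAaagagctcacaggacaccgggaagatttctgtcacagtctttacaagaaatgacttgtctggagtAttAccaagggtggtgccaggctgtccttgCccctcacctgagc
Of 168 aligned positions 162 were identical, with 5 substitutions and 1 inserted base. Both hold a match to the C/EBP motif TTGCNNAA, at 182 bases before the start in *Saa1* and 183 in *Saa2*, which 9.56% of all 32851 RefSeq promoters hold on either strand in the 250 bases before the start. The transcripts are also close copies: their last 300 bases were 92.4% identical, with a longest shared run of 73 bases, so reads that fit both cannot be assigned and the split of UMIs between *Saa1* and *Saa2* is uncertain.

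The stretch before *Duoxa2* is shown because it lies in the interval shared with *Duox2*, and the levels of these genes across clusters were more alike than those of any other pair among the 7. It covers chr2:122298770-122298899 on the plus strand of GRCm38.p6 and ends at the base before the start. Capitals mark a TATAAA motif.
Duoxa2: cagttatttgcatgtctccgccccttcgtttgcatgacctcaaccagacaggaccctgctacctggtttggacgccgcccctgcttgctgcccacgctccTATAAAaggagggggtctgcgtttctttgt
The TATAAA match begins 30 bases before the start and was the only one among the 5 members with a RefSeq promoter (*Duox2*, *Duoxa2*, *Saa1*, *Saa2* and *Pigr*), against 12.4% of all promoters. No match to the STAT motif TTCNNNGAA (7.02% of promoters) or to the NF-kappaB letters GGGANTTTC (0.941%) was found on either strand in the 250 bases before the start of these 5 genes, which says only that these letters are not in this window.

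Across whole libraries, 6 of the 7 genes were at least 1.5-fold lower in *Tipe0*-/- cells and none was higher. Of the 11665 genes with at least 50 UMIs, 5.06% were at least 1.5-fold lower and 8.62% at least 1.5-fold higher. The median log2 ratio was −1.07 over the 7 genes and 0.15 over all genes, so whole-library ratios lie 0.15 further down when read against the median gene. Within cell classes the median of all genes lay between −0.01 and 0.17, except in Paneth-like cells (0.49). The plot of all log2 ratios shows 6 of the 7 genes in the lower tail of the distribution and *Pigr* closer to its centre, at percentile 19.9.

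**Figure D1:**
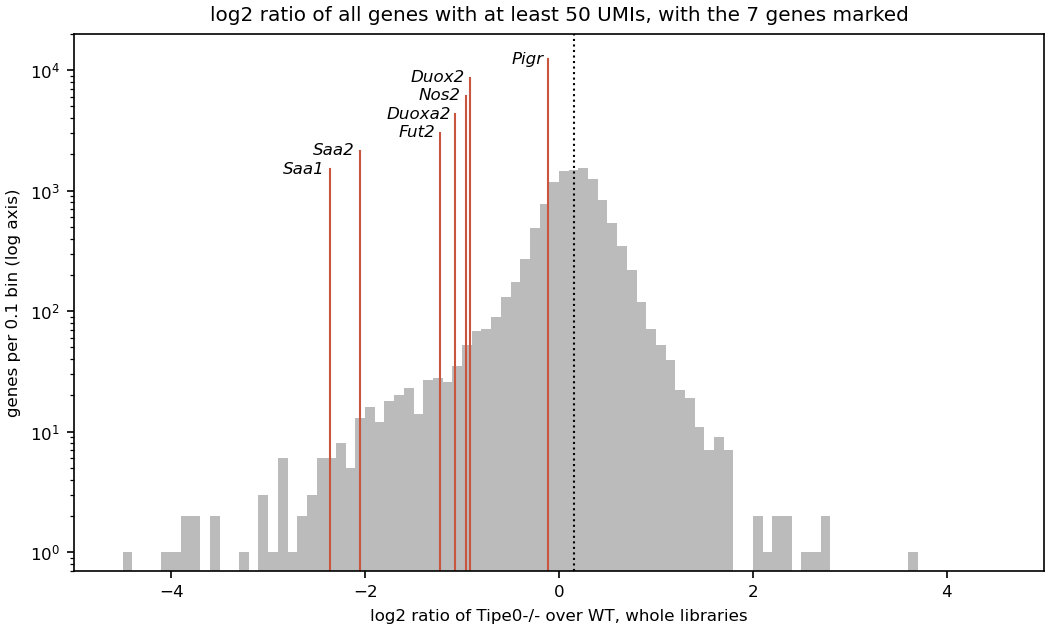
Histogram of the log2 ratio of *Tipe0*-/- over WT (x axis) for the 11665 genes with at least 50 UMIs, with the number of genes per bin on a log axis, red lines at the 7 genes and a dotted line at the median of all genes (0.15). *Saa1* (−2.37) and *Saa2* (−2.05) lie farthest to the left, *Fut2*, *Duoxa2*, *Nos2* and *Duox2* lie between −1.22 and −0.92, and *Pigr* lies at −0.11.

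The acute-phase genes differed most. *Saa1* stood at 502 CPM in WT (19135 UMIs, interval 495 to 509) and at 97.4 CPM in *Tipe0*-/- cells (2327 UMIs, 93.5 to 101), which is 5.15-fold lower and the 34th lowest ratio of the 11665 genes. *Saa2* had 89 and 13 UMIs (2.33 and 0.544 CPM, log2 ratio −2.05, −3.07 to −1.25). Their relative *Saa3* also had more UMIs in the WT library, with 105 against 20 (log2 ratio −1.69, −2.49 to −1.02), whereas *Saa4* had none in either.

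The oxidase and its maturation factor were lower by about the same amount. *Duox2* stood at 327 CPM in WT and 173 CPM in *Tipe0*-/- cells (log2 ratio −0.92, −0.97 to −0.87), and *Duoxa2* at 117 and 55.6 CPM (−1.07, −1.16 to −0.98). *Nos2*, the nitric oxide synthase, stood at 25.0 and 12.8 CPM (−0.96, −1.15 to −0.78). The fucosyltransferase *Fut2* stood at 21.4 and 9.16 CPM (−1.22, −1.45 to −1.01). The IgA carrier *Pigr* was the exception, at 971 and 901 CPM (−0.11, −0.13 to −0.08), a 1.08-fold difference. On the log-normalized scale, where each cell's value is compressed before averaging, *Saa1* alone passed 1.5-fold, so the count of 6 genes holds on the linear scale only. A gene found in few cells has little room to differ on the log-normalized scale. Without thinning, *Saa2*, *Fut2* and *Nos2* were found in 2.35%, 17.0% and 18.2% of WT cells, so for them that scale cannot decide.

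Cells were next grouped so that each gene could be followed by cell class. Clusters were formed without the 7 genes and without the genes that the study itself lists for this genotype contrast, and were named from marker genes. Of 14 clusters, 11 were named. The 3 others are called unnamed cluster 2, led by genes of DNA replication (*Ccne2*, *Cdc6*, *Dtl*), unnamed cluster 9, led by *Ptpn22*, *Lrg1* and *Akr1c19*, and unnamed cluster 5, led by *Slc40a1*, *Cldn8* and *Sh3tc1*. The enterocyte-like class held 606 WT and 298 *Tipe0*-/- cells, but in different clusters. Cluster 1, led by *U90926*, *Upp1* and *Saa1*, held 531 WT and 140 *Tipe0*-/- cells, and cluster 8, led by *Apoa4*, *Clca4a* and *Mme*, held 75 and 158, so values are also given by cluster. The goblet-like class was made of cluster 0, led by *Id4*, *Etv5* and *Mt3* (424 WT and 325 *Tipe0*-/- cells), cluster 7, led by *Sval1* and *Ido1* (197 and 130), and cluster 11, led by *Frmd3* and *Zg16* (128 and 58). Lymphocyte-like cells (90 WT and 17 *Tipe0*-/-), which should lack most of these genes, are used as a measure of free RNA in the droplets. They were shallow, with a median of 4422 UMIs in WT against 20981.5 in Paneth-like cells, and free RNA takes a smaller part of a deeper cell. In deeper classes a CPM near theirs therefore does not show that a level is background. For *Pigr* the measure is uncertain. Its 170 WT UMIs in lymphocyte-like cells lay in only 37.8% of these cells without thinning, and whether they are free RNA was not tested.

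**Figure D2:**
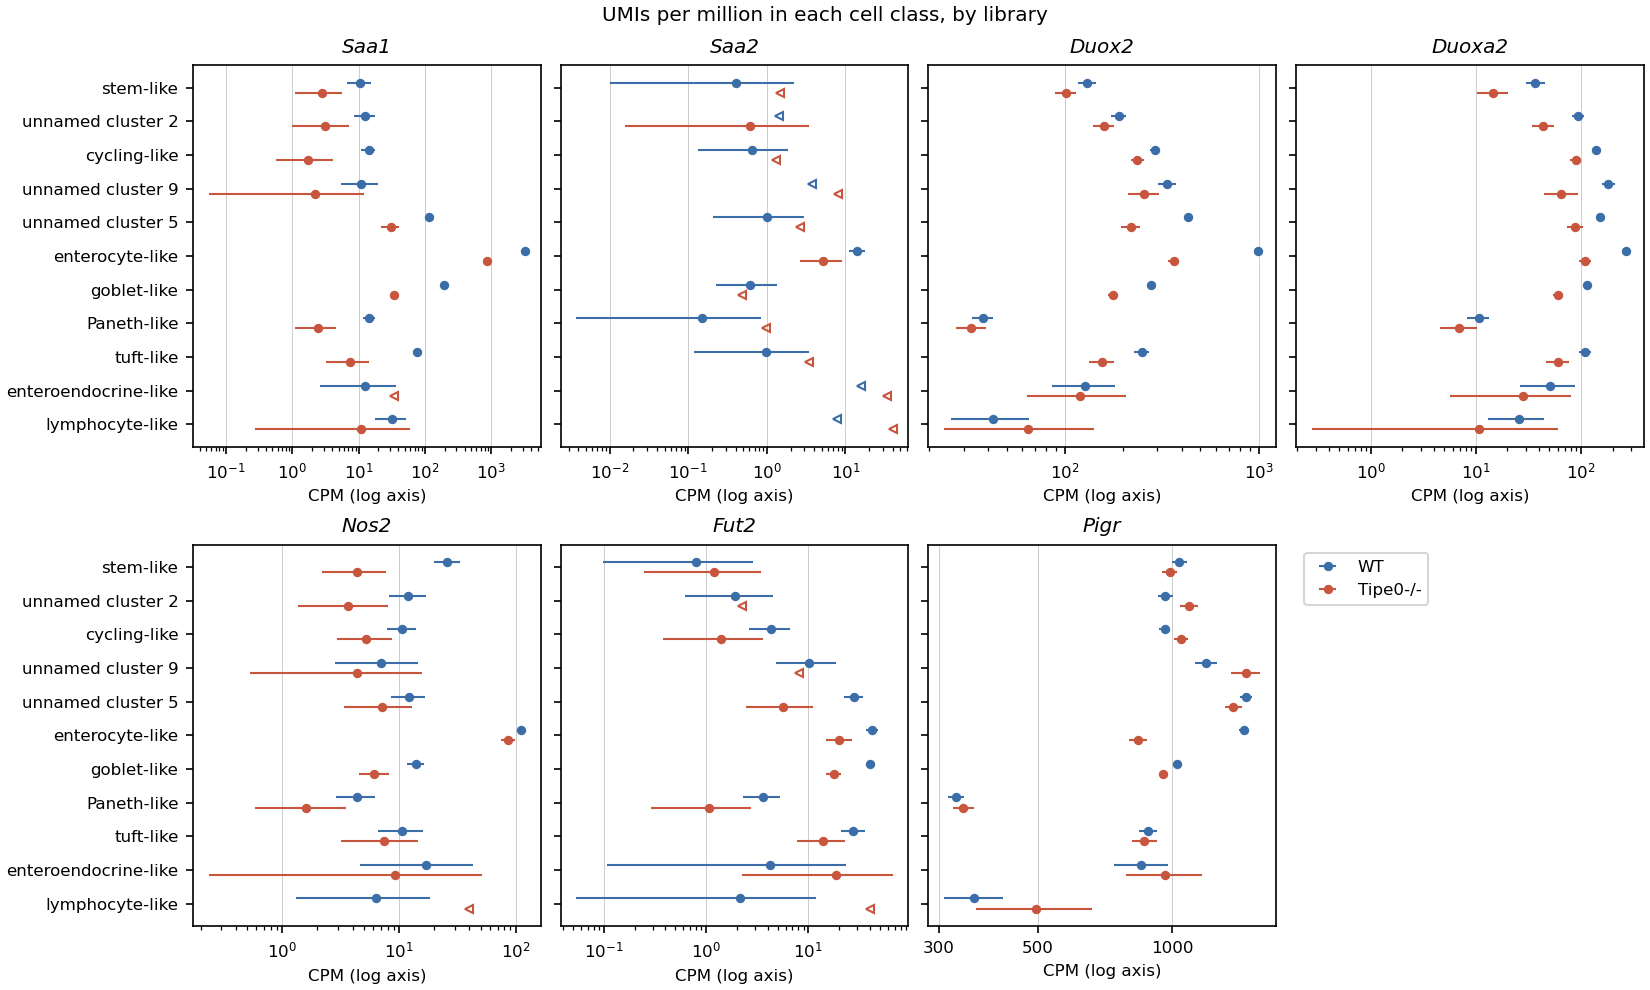
CPM (x axis, log scale, a scale of its own for each gene) in each cell class (y axis) for WT (blue) and *Tipe0*-/- (red), with exact 95% Poisson intervals; open triangles stand at the upper limit where no UMI was found. *Saa1*, *Duox2*, *Duoxa2* and *Nos2* are highest in enterocyte-like cells of both libraries, and *Pigr* is spread over the epithelial classes, lowest in Paneth-like cells.

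*Saa1* was concentrated in enterocyte-like cells. These cells held 3189.8 CPM in WT (3141 to 3239) and 852 CPM in *Tipe0*-/- cells (815 to 890.3), and their log2 ratio was −1.90 (−1.97 to −1.84). In WT cells the goblet-like class came next with 192 CPM, then unnamed cluster 5 with 116 and tuft-like cells with 77.1, and the intervals of these 4 classes did not overlap. The remaining epithelial classes lay between 10.4 and 14.3 CPM in the WT library, under the 31.8 CPM of lymphocyte-like cells, and are not told apart from background. In *Tipe0*-/- cells the levels of goblet-like cells (34.0 CPM) and unnamed cluster 5 (30.5 CPM) overlapped with each other and with that of lymphocyte-like cells (10.8 CPM, 0.274 to 60.2), which rests on 1 UMI.

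Both enterocyte-like clusters showed the *Saa1* difference. In cluster 1 the level was 2851 CPM in WT and 482 CPM in *Tipe0*-/- cells (log2 ratio −2.56), and in cluster 8 it was 6869.8 and 1304 CPM (−2.40). As *Tipe0*-/- cells sat more often in cluster 8, where *Saa1* is higher, the class as a whole differed less than either of its clusters. Among goblet-like cells, *Saa1* UMIs were concentrated in cluster 11, with 859 CPM in WT and 154 CPM in *Tipe0*-/- cells (−2.47), whereas cluster 7 held 223 and 172 CPM (−0.37, −0.69 to −0.05). Cluster 0, the largest, held 11.8 and 1.63 CPM, under or within the lymphocyte-like intervals.

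The *Saa1* UMIs came from a small part of the cells. They were found in 1094 WT and 300 *Tipe0*-/- cells, with up to 166 and 64 UMIs in a cell, and the richest 10% of all cells held 82.7% and 95.7% of them. To remove differences in depth, each cell was thinned to 3000 UMIs, which all cells reached. After thinning, 88.3% of WT (85.5 to 90.7%) and 52.0% of *Tipe0*-/- enterocyte-like cells (46.2 to 57.8%) had a *Saa1* UMI (93.4% and 64.8% without thinning), against 8.89% and 5.88% of lymphocyte-like cells. Thus the lower sum went with a lower share of positive cells, and both shares were above that of lymphocyte-like cells.

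*Saa2* UMIs came mostly from the same class. Of 89 WT UMIs 73 were in enterocyte-like cells, as were 12 of 13 in the *Tipe0*-/- library (14.1 and 5.15 CPM, log2 ratio −1.41, −2.47 to −0.56). By cluster these were 65 and 4 UMIs in cluster 1 and 8 and 8 UMIs in cluster 8. All 31 WT and all 7 *Tipe0*-/- enterocyte-like cells with a *Saa2* UMI after thinning also had a *Saa1* UMI. In WT so did 504 of the 575 cells without one (87.7%), and the intervals overlapped (88.8 to 100% and 84.7 to 90.2%). The uncertain split of UMIs between these genes also limits this overlap. The goblet-like class had 6 WT and 0 *Tipe0*-/- UMIs of *Saa2*, too few for a ratio.

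*Duox2* was above the lymphocyte-like level in all epithelial classes of the WT library but the Paneth-like, and its difference between the libraries varied by class. Enterocyte-like cells held 993 CPM in WT (966 to 1020.02) and 365 CPM in *Tipe0*-/- cells (341 to 390.3), a log2 ratio of −1.44 (−1.55 to −1.34). The next level in WT was that of unnamed cluster 5 with 433 CPM, against 218 CPM in *Tipe0*-/- cells (−0.99, −1.17 to −0.81). Goblet-like cells held 278 and 176 CPM (−0.66) and tuft-like cells 249.7 and 155 CPM (−0.68). Within the goblet-like class the ratio was −0.37 in cluster 0, under 1.5-fold, −0.86 in cluster 7 and −1.02 in cluster 11.

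In the classes with stem and dividing cells, and in unnamed cluster 9, the *Duox2* difference was smaller. Cycling-like cells held 291 and 237 CPM (−0.29, −0.43 to −0.16), unnamed cluster 2 held 190.2 and 159 CPM (−0.26, −0.49 to −0.04), unnamed cluster 9 held 338 and 257 CPM (−0.39), and stem-like cells held 130.1 and 101 CPM (−0.37, −0.61 to −0.13). None of these 4 classes passed 1.5-fold. With 2000 variable genes by another method the stem-like ratio was −0.78, so that its place in this order depends on which cells are called stem-like. In Paneth-like cells *Duox2* (37.6 and 32.9 CPM) was at or under the level of lymphocyte-like cells (42.4 and 64.8 CPM) and is not told apart from background by CPM. A *Duox2* UMI was found in 14.2% of WT Paneth-like and 12.2% of WT lymphocyte-like cells after thinning, and in 47.9% and 18.9% without thinning.

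Within the enterocyte-like class *Duox2* was highest in cluster 8, with 2629 CPM in WT and 480.1 CPM in *Tipe0*-/- cells (−2.45), and lower in cluster 1, with 842 and 271 CPM (−1.64). After thinning, 88.0% of WT (85.1 to 90.4%) and 54.4% of *Tipe0*-/- enterocyte-like cells (48.5 to 60.1%) had a *Duox2* UMI (96.4% and 73.8% without thinning). The share among lymphocyte-like cells was 12.2% (6.26 to 20.8%) and 23.5% (6.81 to 49.9%).

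*Duoxa2* followed *Duox2* across classes. Enterocyte-like cells held 266 CPM in WT (252 to 280.3) and 109.8 CPM in *Tipe0*-/- cells (96.7 to 124), a log2 ratio of −1.27 (−1.47 to −1.08), which is smaller than in either of its clusters. Cluster 1 held 221 and 77.2 CPM (−1.51) and cluster 8 held 756 and 149.6 CPM (−2.33). Goblet-like cells held 115 and 60.1 CPM (−0.94), unnamed cluster 5 held 153 and 87.9 CPM (−0.80), and cycling-like cells held 138 and 89.1 CPM (−0.63). In the *Tipe0*-/- library the intervals of enterocyte-like, cycling-like and unnamed cluster 5 cells overlapped from each to the next, whereas in WT the enterocyte-like level stood clear of all others.

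*Duoxa2* differed more than *Duox2* in goblet-like cells and in 3 of the classes where the *Duox2* difference was small. In stem-like cells it stood at 36.8 and 14.6 CPM (92 and 37 UMIs, −1.32, −1.92 to −0.77), in unnamed cluster 2 at 94.3 and 43.6 CPM (−1.10) and in unnamed cluster 9 at 183 and 65.3 CPM (−1.47). In each of these 3 the interval of the *Duoxa2* ratio lay below that of the *Duox2* ratio. The same held in goblet-like cells, with −0.94 (−1.10 to −0.78) for *Duoxa2* and −0.66 (−0.75 to −0.56) for *Duox2*. The WT stem-like interval (29.7 to 45.2 CPM) overlapped with that of lymphocyte-like cells (13.2 to 44.5 CPM), so the stem-like *Duoxa2* level is not told apart from background.

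The transcripts of the oxidase and its maturation factor went together in enterocyte-like cells, in that *Duoxa2* was found more often in cells with a *Duox2* UMI than in cells without one. Among thinned WT enterocyte-like cells, 279 of 533 cells with a *Duox2* UMI also had a *Duoxa2* UMI (52.3%, 48.0 to 56.7%), against 22 of 73 cells without one (30.1%). In *Tipe0*-/- cells these shares were 52 of 162 (32.1%, 25.0 to 39.9%) and 11 of 136 (8.09%). The part of clusters 1 and 8, which differ in the level of both genes, was not tested. In unnamed cluster 5 the shares were alike, at 32.8% and 31.5% in WT and 16.4% and 16.9% in *Tipe0*-/- cells. They were 28.7% and 19.6% in WT goblet-like cells and 32.0% and 26.1% in WT cycling-like cells. Over 28 points, the 14 clusters in each library, log2(CPM + 1) of *Duoxa2* was the gene most like *Duox2* among 9841 genes (Pearson r 0.95, a description, as the points share 2 libraries), followed by *Cldn7* (0.93) and *Ppp1r14d* (0.92).

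*Nos2* was highest in enterocyte-like cells, and there its difference was the smallest of the 7. The class held 111 CPM in WT (102 to 120.2) and 86.2 CPM in *Tipe0*-/- cells (74.7 to 99.0), a log2 ratio of −0.36 (−0.60 to −0.13). The clusters went apart. In cluster 1 *Nos2* stood at 109.7 CPM in WT and 49.9 CPM in *Tipe0*-/- cells (−1.13, −1.53 to −0.76), and in cluster 8 at 121 and 131 CPM (0.10, −0.36 to 0.59). Thus in cluster 8, where *Saa1* and *Duox2* were lower in *Tipe0*-/- cells, no difference of *Nos2* was detectable at this depth.

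By class, the next highest *Nos2* level in WT was in stem-like cells, with 26.0 CPM (65 UMIs, 20.1 to 33.2) against 4.35 CPM (11 UMIs, 2.17 to 7.79) in *Tipe0*-/- cells, a log2 ratio of −2.53 (−3.65 to −1.65). Lymphocyte-like cells had 3 *Nos2* UMIs in WT (6.37 CPM, 1.31 to 18.6) and 0 in *Tipe0*-/- cells, and the WT stem-like interval lay above theirs. Goblet-like cells as a class held 13.9 and 6.13 CPM (−1.17, −1.69 to −0.69), within the intervals of lymphocyte-like cells. By cluster, cluster 11 stood at 35.5 CPM in WT (63 UMIs, 27.3 to 45.4), above the WT lymphocyte-like interval. Its *Tipe0*-/- level was 19.3 CPM (16 UMIs, −0.85, −1.77 to −0.07). Clusters 0 and 7 stood at 9.30 and 7.53 CPM in WT, not told apart from background. After thinning, 27.6% of WT (24.0 to 31.3%) and 24.2% of *Tipe0*-/- enterocyte-like cells (19.4 to 29.4%) had a *Nos2* UMI, whose intervals overlapped (52.5% and 40.9% without thinning). In lymphocyte-like cells 2 of 90 and 0 of 17 had one, and 0 of 17 allows a share of up to 17.6% by the limit of 3 counts, which bounds cells with a UMI and not cells that express the gene.

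*Fut2* had its highest levels in enterocyte-like and goblet-like cells, whose WT intervals overlapped (42.3 CPM, 36.9 to 48.3, and 40.5 CPM, 36.6 to 44.7). The *Tipe0*-/- levels were 20.2 CPM (−1.06, −1.56 to −0.61) and 17.7 CPM (−1.19, −1.49 to −0.91). By cluster, the enterocyte-like levels were 41.1 and 17.2 CPM in cluster 1 (−1.23) and 55.0 and 23.8 CPM in cluster 8 (−1.21). Unnamed cluster 5 showed the largest difference, with 83 UMIs (27.9 CPM) in WT and 8 UMIs (5.67 CPM) in *Tipe0*-/- cells (−2.22, −3.56 to −1.25), and tuft-like cells held 27.5 and 13.8 CPM (−0.95). In stem-like cells only 2 and 3 UMIs were found, a level within the interval of lymphocyte-like cells. Among goblet-like cells, cluster 0 stood at 29.7 and 15.2 CPM (−0.96), cluster 7 at 72.8 and 47.7 CPM (−0.60, −1.23 to −0.02) and cluster 11 at 60.3 and 10.8 CPM (−2.40, −3.64 to −1.50), so that cluster 11 differed more than cluster 7, as it did for *Saa1*.

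By CPM, *Pigr* was above the lymphocyte-like level in all epithelial classes but the Paneth-like, and it passed 1.5-fold in 1 class. After thinning, 91.4% of WT and 88.7% of *Tipe0*-/- cells had a *Pigr* UMI (97.1% and 96.2% without thinning), against 31.1% and 47.1% of lymphocyte-like cells. Among Paneth-like cells the share was 67.7% in WT (61.9 to 73.2%) and 63.3% in *Tipe0*-/- cells. In WT this share lay above the lymphocyte-like one (21.8 to 41.7%). The WT level of *Pigr* ranged from 328 CPM in Paneth-like cells, under the 361 CPM of lymphocyte-like cells, to 1468 CPM in unnamed cluster 5. Enterocyte-like cells held 1448 CPM in WT (1415 to 1481) and 839.6 CPM in *Tipe0*-/- cells (803 to 878), a log2 ratio of −0.79 (−0.86 to −0.71). In WT this class overlapped with unnamed cluster 5 at the top of the order. In *Tipe0*-/- cells it overlapped with tuft-like and enteroendocrine-like cells and lay below the other epithelial classes except the Paneth-like.

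In the other classes *Pigr* lay close to even. Goblet-like cells held 1025 and 956 CPM (−0.10), unnamed cluster 5 held 1468 and 1373 CPM (−0.10), and stem-like cells held 1038 and 988 CPM (−0.07, −0.15 to 0.01). It was higher in *Tipe0*-/- cells of unnamed cluster 9, with 1193 and 1463 CPM (0.29, 0.16 to 0.43), of unnamed cluster 2 (0.18, 0.09 to 0.27) and of the cycling-like class (0.12, 0.06 to 0.19). Both enterocyte-like clusters showed the lower level, with 1491 and 996 CPM in cluster 1 (−0.58, just short of 1.5-fold) and 985 and 648 CPM in cluster 8 (−0.60). As *Tipe0*-/- cells sat more often in cluster 8, where *Pigr* is lower, the class as a whole differed more than either of its clusters. With cells named one by one from their marker scores the enterocyte-like ratio was −0.57, just short of 1.5-fold.

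**Figure D3:**
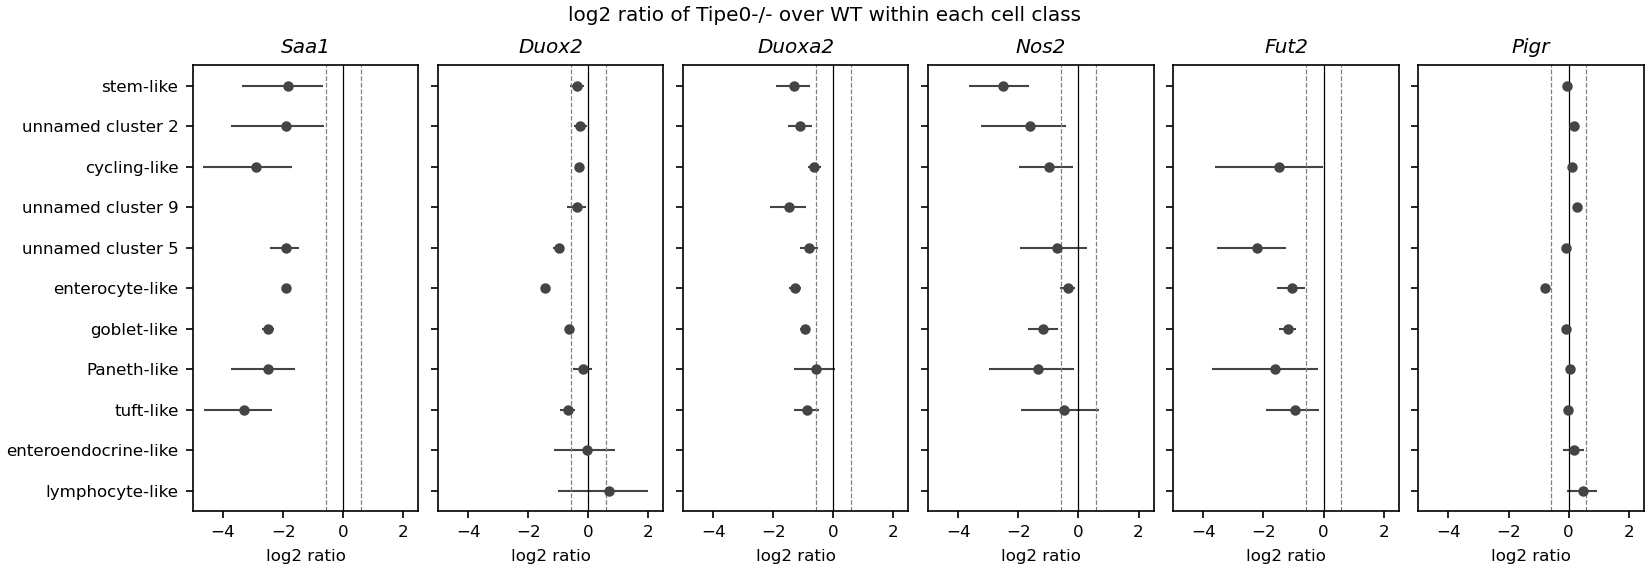
log2 ratio of *Tipe0*-/- over WT (x axis) in each cell class (y axis), with exact 95% intervals for counting error, for genes with at least 20 UMIs in the class; dashed lines mark 1.5-fold. *Saa1* lies left of the dashed line in every class shown, *Duox2* lies farthest left in enterocyte-like cells (−1.44), and *Pigr* passes the line in enterocyte-like cells alone (−0.79). In stem-like, cycling-like, Paneth-like and unnamed cluster 2 cells the WT *Saa1* level lay under that of lymphocyte-like cells. Those *Saa1* levels are not told apart from background.

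The 7 genes were also counted by class, beside the share of all genes that were at least 1.5-fold lower in *Tipe0*-/- cells of that class. In enterocyte-like cells 6 of 7 genes were so (all but *Nos2*), against 5.73% of all genes tested in that class. In goblet-like cells it held for 5 of 6 genes with at least 20 UMIs (4.89% of all genes) and in unnamed cluster 5 for 5 of 6 (6.43%). The counts were 4 of 6 in cycling-like (4.49%), Paneth-like (2.37%) and tuft-like cells (10.5%), 3 of 5 in stem-like cells (5.93%) and unnamed cluster 2 (7%), and 1 of 3 in unnamed cluster 9 (9.36%). Many of these levels were low. Counting only genes whose WT interval lay above that of lymphocyte-like cells left 6 genes in enterocyte-like cells, 4 each in goblet-like, tuft-like and unnamed cluster 5 cells, 1 each in stem-like and cycling-like cells and in unnamed clusters 2 and 9, and 0 in Paneth-like cells. The one left was *Nos2* in stem-like cells and *Duoxa2* in the other 3. As the limit is the CPM of shallow cells, it is stricter for deeper classes, and the 0 in Paneth-like cells does not show that these genes are absent there. In enteroendocrine-like and lymphocyte-like cells only 2 of the 7 genes had 20 UMIs, and *Duox2* in lymphocyte-like cells (20 and 6 UMIs, 0.69) passed 1.5-fold upward.

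Enterocytes change as they climb the villus, so the enterocyte-like cells were ordered by the summed UMIs of 10 villus-tip genes and split into 3 ranges of near equal size at scores of 9 and 37. The ranges held 219, 222 and 165 WT cells and 82, 79 and 137 *Tipe0*-/- cells, and the median score in the highest range was 68 in both libraries. They are ranges of a score, not cell types, and they overlap with the clusters. The lowest range held 300 cells of cluster 1 and 1 of cluster 8, and the highest held 108 and 194.

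**Figure D4:**
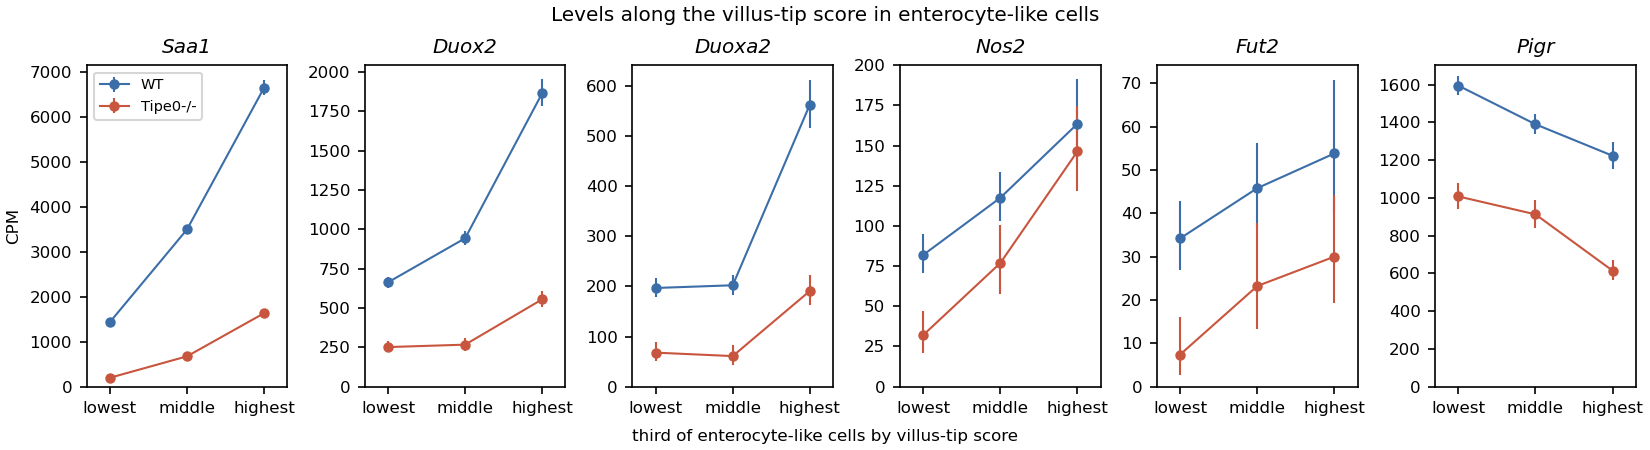
CPM (y axis, from 0) in the lowest, middle and highest range of the villus-tip score of enterocyte-like cells (x axis) for WT (blue) and *Tipe0*-/- (red), with exact 95% Poisson intervals. *Saa1* and *Duox2* are highest in the highest range of both libraries with a gap in every range, the *Nos2* intervals overlap in the highest range (164 and 146 CPM), and *Pigr* declines.

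*Saa1* climbed with the score in both libraries. Its WT levels were 1434, 3498 and 6653 CPM from the lowest to the highest range, and its *Tipe0*-/- levels were 197, 675 and 1635 CPM, so that the log2 ratio went from −2.86 to −2.37 and −2.02. Only in the highest range did the *Tipe0*-/- level exceed the WT level of the lowest. *Duox2* stood at 663, 944 and 1868 CPM in WT and at 252, 267 and 556 CPM in *Tipe0*-/- cells, with log2 ratios of −1.39, −1.82 and −1.75. *Duoxa2* was also highest in the highest range but level between the lower ones, with 197, 202 and 563 CPM in WT and 67.9, 61.0 and 191 CPM in *Tipe0*-/- cells, and with log2 ratios of −1.52, −1.71 and −1.56.

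*Nos2* went its own way, as it did by cluster, in largely the same cells. In WT it stood at 82.0, 118 and 164 CPM and in *Tipe0*-/- cells at 32.1, 76.9 and 146 CPM. Its log2 ratio was −1.33 (−2.01 to −0.76) in the lowest, −0.60 (−1.07 to −0.18) in the middle and −0.16 (−0.51 to 0.19) in the highest range, where the levels overlapped. *Fut2* stood at 34.2, 45.8 and 53.8 CPM in WT and at 7.40, 23.2 and 30.0 CPM in *Tipe0*-/- cells, the last 3 values resting on 6, 16 and 25 UMIs. *Pigr* declined toward the tip, from 1595 to 1390.5 and 1224 CPM in WT and from 1008 to 913 and 615 CPM in *Tipe0*-/- cells, with log2 ratios of −0.66, −0.61 and −0.99.

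Other pairs were also found in the same cells. Among thinned *Tipe0*-/- enterocyte-like cells, *Saa1* was found in 100 of 162 cells with a *Duox2* UMI (61.7%, 53.8 to 69.2%) and in 55 of 136 without one (40.4%). In WT these shares were 477 of 533 (89.5%) and 58 of 73 (79.5%). *Pigr* showed the opposite order in *Tipe0*-/- cells, at 75.3% of cells with a *Duox2* UMI (67.9 to 81.7%) and 90.4% of cells without one. These shares follow the villus-tip score as well, along which *Duox2* was higher and *Pigr* lower at the tip, and its part in them was not tested.

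The genes most like the others across the 28 cluster values differed by member. For *Saa1* they were *Ifit1* (r 0.95), *Irf7* (0.93) and *Mxd1* (0.93), of which the first 2 are interferon-response genes. For *Saa2* they were *U90926* (0.93), *Slc6a14* (0.91) and *Ubd* (0.90), for *Nos2* they were *Upp1* (0.93), *Abhd12* (0.91) and *Neu1* (0.91), and for *Fut2* they were *Trp53inp2* (0.89), *Spats2l* (0.87) and *C2cd2l* (0.86). *Pigr* was most like *Atp10b* (0.92), *Elovl7* (0.90) and *Kif1c* (0.90). Within the group, *Pigr* was least like *Saa1* (0.18) and most like *Duox2* (0.69).

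Genes of the surrounding pathways were then counted by list, and the lists were chosen with earlier results of these data known. For comparison, 5.06% of all genes tested in whole libraries were at least 1.5-fold lower and 8.62% at least 1.5-fold higher. Of the other genes known to be induced by microbes in gut epithelium, 9 of 16 with at least 50 UMIs were at least 1.5-fold lower in *Tipe0*-/- cells and none was higher, with a median log2 ratio of −0.75 (0.15 over all genes). They include the antimicrobial lectins *Reg3b* (40346 and 25185 CPM, −0.68) and *Reg3g* (21844 and 11738 CPM, −0.90), the goblet cell product *Retnlb* (13987 and 657 UMIs, −3.74), the ribonuclease *Ang4* (−1.53), *Lypd8*, which keeps flagellated bacteria off the epithelium (−0.84), and the siderophore-binding *Lcn2* (124 and 44 UMIs, −0.81). *Lrg1* (−2.28), the amino acid transporter *Slc6a14* (−1.63) and the nucleic acid sensor *Zbp1* (−1.54) complete the 9. The 7 other genes of this list lay between −0.22 and 0.25 in whole libraries. One of them, *Dmbt1*, a secreted scavenger receptor (−0.20), stood at 796 and 308 CPM in enterocyte-like cells (−1.37, −1.49 to −1.26).

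**Figure D5:**
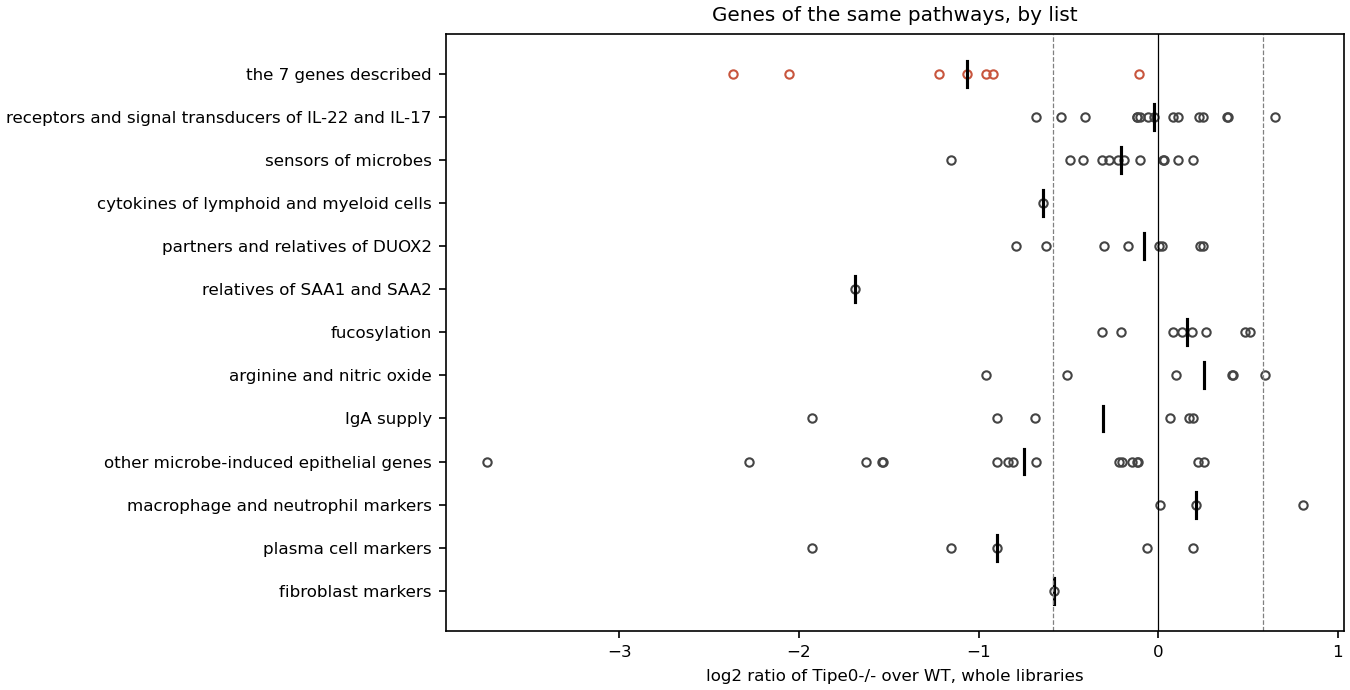
log2 ratio of *Tipe0*-/- over WT in whole libraries (x axis) for the genes with at least 50 UMIs in each list (y axis), with a bar at the median of each list and dashed lines at 1.5-fold. The 7 genes described (red) and the other microbe-induced epithelial genes have medians of −1.07 and −0.75, while receptors, sensors and the fucosylation genes centre near 0 (−0.02, −0.21 and 0.16).

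The list of receptors and signal transducers of IL-22 and IL-17 showed no such shift as a whole, although the receptor subunit *Il17rc* was lower and *Il22ra1* had too few UMIs to judge. Of 15 receptors and signal transducers tested, 1 was at least 1.5-fold lower and 1 higher, with a median of −0.02. *Il10rb*, a subunit of the IL-22 receptor, stood at 20.5 and 22.2 CPM (0.11, −0.05 to 0.27), *Il17ra* at 10.4 and 9.54 CPM (−0.12, −0.36 to 0.12) and *Il17rc* at 72.7 and 54.7 CPM (−0.41, −0.51 to −0.32), while *Il22ra1* had only 6 and 5 UMIs. *Stat3*, the transcription factor below the IL-22 receptor, stood at 52.2 and 51.5 CPM (−0.02, −0.13 to 0.08). Its feedback target *Socs3* stood at 27.3 and 18.7 CPM (−0.54, −0.70 to −0.38). *Nfkbiz*, an atypical IkappaB protein that IL-17 induces, was the lower one (61.6 and 38.4 CPM, −0.68), and the transcription factor *Cebpb* the higher one (22.2 and 34.8 CPM, 0.65).

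The cytokines themselves were barely present in this epithelial preparation. *Il22* had no UMI in either library, *Il17a* had 1 and 0, *Il17f* had 0 and 1, and *Ifng* had 8 and 1. *Tnf* alone reached 50 UMIs, with 53 and 21, and passed 1.5-fold with an interval that included 0 (−0.64, −1.47 to 0.09). Sensors of microbes had a median of −0.21 with 1 of 12 lower, *Tlr4*, which rests on 58 and 16 UMIs (−1.15).

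Partners of the 7 genes were mostly level. Of 8 tested genes listed as partners or relatives of DUOX2, 2 were lower. They were the colonic oxidase *Nox1* (266 and 96 UMIs, −0.79) and the glutathione peroxidase *Gpx2* (1542 and 998 CPM, −0.63). *Duox1* had only 10 and 5 UMIs, and *Noxo1* stood at 95.7 and 96.1 CPM (0.01). In the arginine and nitric oxide list of 6, *Gch1*, which makes the cofactor of NOS2, was lower (28.7 and 14.8 CPM, −0.96, −1.14 to −0.79) and the arginine transporter *Slc7a2* was higher (74 and 70 UMIs, 0.59). None of 8 fucosylation genes passed 1.5-fold, among them *Gmds*, which makes GDP-fucose (352 and 284 CPM, −0.31). Within enterocyte-like cells alone *Gch1* stood at 61.1 and 27.9 CPM (−1.12) and *Gmds* at 550.3 and 302 CPM (−0.87). *Arg2*, of the arginine and nitric oxide list, went the other way in these cells. It stood there at 58.7 and 114 CPM (304 and 266 UMIs, 0.96), past 1.5-fold upward, whereas in whole libraries it lay within 1.5-fold (0.41).

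For the IgA that PIGR carries, 3 of 6 genes were lower, *Jchain*, the joining chain of IgA (522 and 175 UMIs, −0.90), *Mzb1* (130 and 21 UMIs, −1.93) and *Tnfsf13b* (183 and 71 UMIs, −0.69). The first 2 are plasma cell genes and were highest in lymphocyte-like cells, which made up 2.65% of WT and 0.847% of *Tipe0*-/- cells, so fewer such cells and less RNA per cell cannot be told apart in these sums. The epithelial chemokines *Ccl28* (26.2 and 29.5 CPM, 0.17) and *Ccl25* (173 and 181 CPM, 0.07), which draw IgA-producing cells to mucosa, lay within 1.5-fold in whole libraries, whereas *Ccl28* in enterocyte-like cells stood at 28.0 and 13.3 CPM (145 and 31 UMIs, −1.06, −1.68 to −0.51). Of the whole plasma cell list 3 of 5 genes were lower, with summed levels of 191 and 185 CPM that are mostly *Xbp1* and *Sdc1*. Among macrophage and neutrophil markers 3 were testable, with 1 higher (*Lyz2*, 94 and 103 UMIs) and *Csf1r*, *Adgre1* and *Ly6g* at 5 or fewer UMIs in each library, and the only fibroblast gene tested was *Dcn* (58 and 24 UMIs, −0.58). In WT, lymphocyte-like cells held 15 of 19135 *Saa1* UMIs, 0 of 89 of *Saa2*, 20 of 12467 of *Duox2* and 12 of 4442 of *Duoxa2*. They held 3 of 955 of *Nos2*, 1 of 817 of *Fut2* and 170 of 37037 of *Pigr*. The part of lymphocyte-like cells in the whole-library ratios of the 7 genes was not tested further.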

How the data were processed

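Cells were isolated from the ileum of WT and *Tipe0*-/- mice and sequenced by 3′ droplet chemistry, 1 library per genotype. Cell Ranger was used by the authors for alignment to mm10, and they deposited UMI counts of genes in cells, with no normalization and without the equalized depth of their methods. The 7 genes, the gene lists, the 1.5-fold limit and the marker genes were chosen with earlier results of these data known.

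UMIs were summed over cells and divided by the total. Log2 ratios have 0.5 UMI added to each sum and exact binomial intervals; shares of cells have exact Clopper-Pearson intervals. Confidence intervals are 95% and cover counting error only; 3 counts give the limit where a share is 0. Genes needed 50 UMIs in whole libraries and 20 in a class. Named genes are the 7 members, list genes past 1.5-fold, receptors, cytokines and relatives at any level, and the 3 genes most like each member among genes with at least 200 UMIs. *Car1*, *Fabp1*, *Dmbt1*, *Gmds*, *Arg2*, *Ccl28*, *Ccl25* and the markers of other cell types were named after their values were seen.

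Clusters were made in R 4.3.3 by Seurat 5.3.0 (14 principal components, resolution 0.8), leaving 530 of 582 variable genes. A cluster took the class of its highest mean marker z-score if 3 or more markers were found in at least 10% of its cells and at 1.5 times the share of other cells. Scrublet in scanpy 1.11.5 called 15 WT and 3 *Tipe0*-/- cells as doublets, too few to have worked, so no cell was left out, and the 170 and 100 cells with the highest scores were left out as an alternative. Ratios and intervals were checked on simulated data. Positions are from GENCODE M21 (GRCm38), promoters from RefSeq GRCm38.p6, aligned with Biopython 1.88. The authors' columns of comparisons were not used.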

Additional observations from a re-analysis of the deposited data

Results flagged for a closer look

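*Pigr* differed in opposite directions between cell classes under the same contrast. Its log2 ratio of *Tipe0*-/- over WT was −0.79 in enterocyte-like cells and 0.29 in unnamed cluster 9, led by *Ptpn22*, *Lrg1* and *Akr1c19*, with 1 library per genotype in each. Within the enterocyte-like class it was −0.58 in cluster 1 and −0.60 in cluster 8, smaller than in the class as a whole. The difference between these classes was not tested, as there is no replicate of either.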

How the results depend on the processing

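No paired analysis was possible because each genotype has 1 library, and for the same reason no replicate could be left out. With the median ratio of genes as the scale, log2 ratios in whole libraries were −1.07 for *Duox2*, −1.22 for *Duoxa2*, −2.52 for *Saa1* and −0.26 for *Pigr*. With totals that leave out mitochondrial and the 20 most abundant genes they were −0.98 for *Duox2* and −0.17 for *Pigr*. With each cell weighted the same they were −1.002 for *Duox2*, −1.17 for *Duoxa2*, −2.07 for *Saa1* and −0.17 for *Pigr*. On the log-normalized scale they were −0.10 for *Fut2*, −0.52 for *Duox2*, −0.41 for *Duoxa2*, −0.10 for *Nos2*, −0.63 for *Saa1*, −0.021 for *Saa2* and −0.16 for *Pigr*, and 1 of the 7 genes was at least 1.5-fold lower instead of 6. Genes found in few cells, such as *Saa2*, *Fut2* and *Nos2*, have little room to reach 1.5-fold on the log-normalized scale. With the same makeup of cell classes in both libraries the log2 ratios were −2.17 for *Saa1* and −0.14 for *Pigr*. Without the 10 cells richest in the gene in each library they were −2.60 for *Saa1* and −3.66 for *Saa2*. Those cells held 6.58% of WT and 20.6% of *Tipe0*-/- *Saa1* UMIs, and 21.3% and 76.9% of *Saa2* UMIs. Leaving them out therefore lowers both ratios by itself, and these 2 values cannot show whether the ratios hold. In enterocyte-like cells, naming each cell by its own marker score gave −2.17 for *Saa1* and −0.57 for *Pigr*, 2000 variable genes by vst gave −0.66 for *Pigr*, and keeping all variable genes gave −0.60. The share of genes at least 1.5-fold lower was 8.69% with a minimum of 1 UMI in each library and 3.11% with at least 200 UMIs. Of 236 alternative values of 43 ratios 232 kept their sign, and the 4 others were *Pigr* in Paneth-like and tuft-like cells. Depth limits *Saa2* and all genes in enteroendocrine-like and lymphocyte-like cells.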
